A study of Mus musculus with 12 samples.

Results

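The messenger RNA of left ventricular tissue was compared between 3 libraries from *Rpl3l*-/- (KO) hearts and 3 libraries from wild-type (WT) hearts of adult mice. These were 6 of the 12 libraries of the series, and the other 6 hold ribosome footprints of the same genotypes and tissue. The series design describes biological triplicates, so each library is taken as 1 heart sample. Per the labels' protocols, tissue of both genotypes was lysed in a polysome buffer with cycloheximide, RNA was taken from lysate without nuclease digestion, and polyadenylated RNA was made into directional libraries. The mouse strain, sex and exact age, and the design of the knockout allele, are not given in the sources used here. Of 21669 transcript names in each count table, most genes having 1 name, 4294 had a mean of at least 50 counts over the 6 libraries once the 10 names beginning with mt- were left out, and these are the genes compared. The tested names of lowest mean, *Atp6ap1*, *Lamp2* and *Slc50a1*, had 50 counts, and *Fbxo3*, *Pola2* and *Ppp1r13l*, just outside, had 49.83.

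RPL3 is a protein of the large ribosomal subunit that reaches towards the peptidyl transferase centre, where peptide bonds form. RPL3L is its paralog, made in heart and skeletal muscle, and in adult muscle it takes the place of RPL3 in a part of the ribosomes. Ventricular RNA comes mostly from cardiomyocytes, whose transcripts encode the contractile filaments and the mitochondrial machinery of fatty acid oxidation and respiration, with smaller contributions from endothelial cells, fibroblasts, mural cells, macrophages and blood.

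The longest stretch of bases common to the counted transcripts of both paralogs is shown because a read lying wholly inside it would match both. How reads with mismatches were assigned between the paralogs is not given in the sources used here. In GENCODE M21 (GRCm38), the *Rpl3* transcript Rpl3-201 has 10 exons and 1351 bases and lies on the minus strand of chromosome 15 between 80077791 and 80083406. The *Rpl3l* transcript Rpl3l-202 has 10 exons and 1375 bases and lies on the plus strand of chromosome 17 between 24727820 and 24736143. Their longest identical run was 22 bases and fell in exon 2 of each. It is printed 5′ to 3′ along each transcript.
Rpl3, chr15:80082420-80082441, minus strand: tacaaggctggcatgacccaca
Rpl3l, chr17:24728458-24728479, plus strand: tacaaggctggcatgacccaca

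The 6 libraries held between 2814810 and 4023519 nuclear counts, after transcripts of the mitochondrial genome, 49.8% to 58.2% of all counts, were set aside. Levels are given as CPM, the count of a gene as a share of the nuclear counts, scaled by TMM factors to a common size, on which the detection floor of 3 counts lay between 0.698 and 1.03 CPM. Summed cardiomyocyte markers lay between 33500 and 38800 CPM, while 2 of 3 Schwann cell markers had no count in any library. The libraries did not sort first by genotype. The first principal component held 63.5% of the variance of the tested genes and placed WT 1, WT 2 and KO 2 at -15.9, -13.3 and -15.0 and WT 3, KO 1 and KO 3 at 18.0, 12.3 and 13.9. *Ryr2*, which encodes the sarcoplasmic calcium release channel, showed this order among genes chosen after their values were seen: it stood at 1833, 1563 and 490 CPM in WT libraries 1 to 3 and at 792, 1980 and 818 CPM in KO libraries 1 to 3. *Atp2a2*, the calcium pump that refills the same store, ran the other way, with 952, 841 and 1913 CPM in WT and 1397, 869 and 1612 CPM in KO. Neither gene separated the genotypes, and both spread widely within each.

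Transcript length moved with the same order. The 656 tested genes of 5 kb or longer had a median deviation from their 6-library mean of 0.08, 0.10 and -0.14 on the log2 scale in WT libraries 1 to 3 and of -0.09, 0.11 and -0.04 in KO libraries 1 to 3. The 467 genes shorter than 1 kb had median deviations of 0.10, 0.03 and -0.10 in WT and of -0.05, 0.10 and -0.07 in KO. Both length classes were thus higher in WT 1, WT 2 and KO 2 and lower in the other libraries, and the genotypes overlapped in both.

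**Figure D1:**
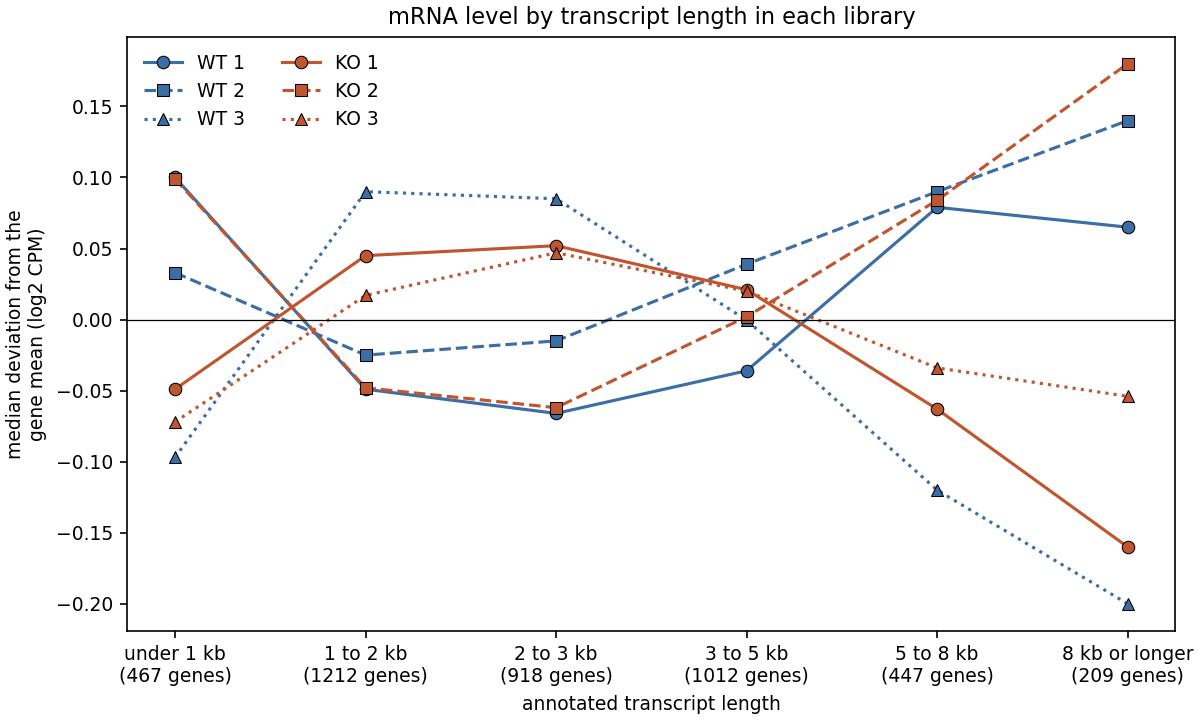
Median deviation of tested genes from their mean over the 6 RNA libraries (log2 CPM, vertical axis) by transcript length class in kilobases (horizontal axis), with 1 line per library, WT and KO in separate colours. Long genes were high in WT 1, WT 2 and KO 2 and low in WT 3, KO 1 and KO 3, so the lines do not sort by genotype.

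The targeted gene was measured first. *Rpl3l* stood at 905, 792 and 802 CPM in WT libraries 1 to 3 and at 94.7, 103 and 103 CPM in KO libraries 1 to 3. All KO libraries lay far below all WT libraries, yet *Rpl3l* reads in each KO library stood well above the detection floor. The mean fell from 833 ± 62.7 CPM (SD, n = 3) to 100.0 ± 4.65 CPM (SD, n = 3), which leaves 12% of the WT level. On the log2 scale the KO mean differed by -3.06 (SE 0.14) and the adjusted p was 0.000134 in edgeR's quasi-likelihood test with Benjamini-Hochberg adjustment over all 4294 genes. Leaving out each library in turn gave -3.10 to -2.99.

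*Rpl3*, the paralog used in most other tissues, stood at 965, 1047 and 880 CPM in WT and at 1467, 1688 and 1449 CPM in KO. Every KO library exceeded every WT library, by a ratio of means of 1.59. On the log2 scale the difference was 0.67 (SE 0.14), its unadjusted p 0.0012 and its adjusted p 0.9997 in edgeR's quasi-likelihood test. Over the alternatives the fold change ran from 0.59 to 0.73 and the adjusted p from 0.121, in DESeq2, to 0.9999, so *Rpl3* did not pass the test across all genes in any of them. Per kilobase of transcript, the WT mean level was 713 CPM for *Rpl3* and 606 CPM for *Rpl3l*, and the KO mean level was 1136 CPM and 72.7 CPM. In footprints of the same genotypes *Rpl3l* had a log2 fold change of -4.77 (SE 0.28) and *Rpl3* one of 0.61 (SE 0.22).

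**Figure D2:**
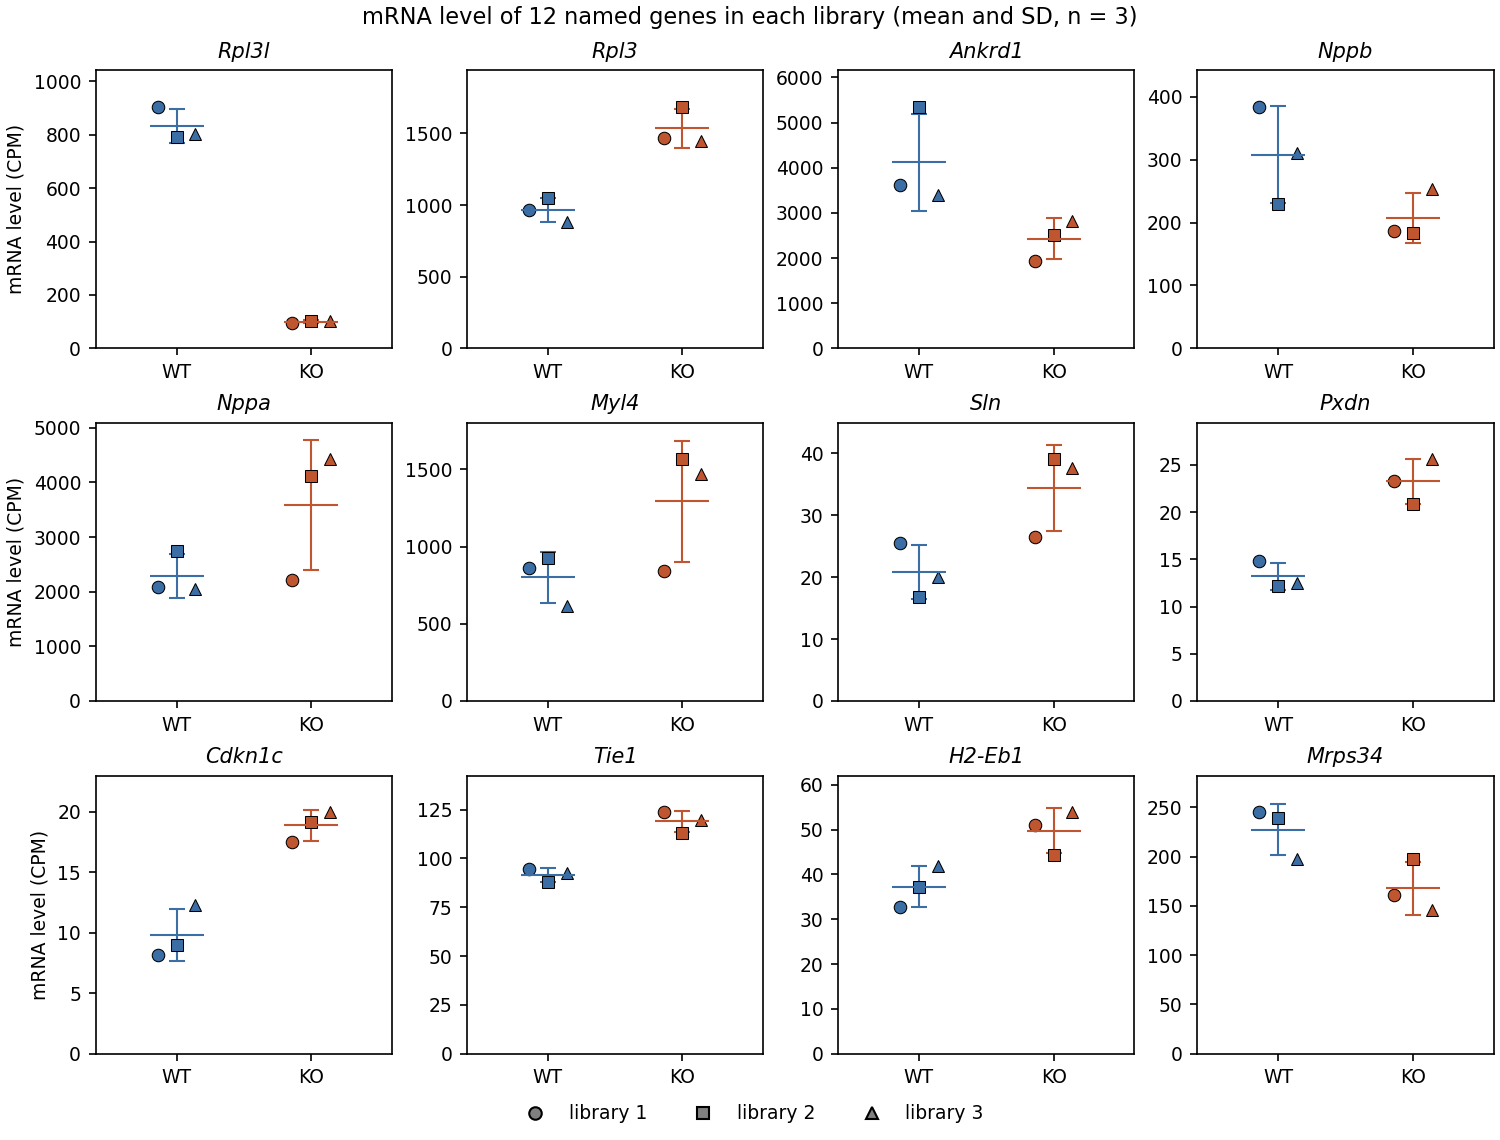
mRNA level (CPM, vertical axes from 0) in each of the 3 WT and 3 KO libraries, 1 panel per gene, each point 1 library, each horizontal line a group mean and each bar 1 SD (n = 3). *Rpl3l* and *Ankrd1* lie lower and *Rpl3* higher in all KO libraries, while *Nppa* is high in KO 2 and KO 3 and within the WT range in KO 1.

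Across the ventricular transcriptome, *Rpl3l* was the only gene whose RNA passed the adjusted threshold of 0.05, 1 of 4294 genes or 0.0233%. The median log2 fold change of all tested genes was -0.00 and the middle of the distribution ran from -0.12 to 0.12, against a median SE of 0.20 for a single gene. An unadjusted p below 0.05 was reached by 58 genes higher in KO, 1.35% of those tested, and by 26 genes lower in KO, 0.605% of those tested. Together these were 84 genes, 1.96% of those tested, fewer than the share of 0.05 that the threshold admits where no gene differs. The KO libraries all exceeded the WT libraries in 150 genes, 3.49% of those tested, and were all under them in 122 genes, 2.84% of those tested. Groups of 3 libraries can also fail to overlap where no gene differs, so single genes below are described and not called. A fold change above 0 was seen in 2095 genes, or 48.8%. Large differences were rare: 89 genes differed by at least 0.5 on the log2 scale and 2 genes by at least 1. Counts were simulated at these depths with 50 genes changed at each size, 200 in all. The test recovered 94% of 3-fold changes, 46% of 2-fold changes and 10% of 1.5-fold changes, with 4 false calls among unchanged genes. Smaller differences were thus mostly not detectable gene by gene. The simulation drew each gene independently, without the order shared by the libraries. With fewer genes changed the adjusted threshold is harder to pass, so recovery in the real libraries may be lower.

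**Figure D3:**
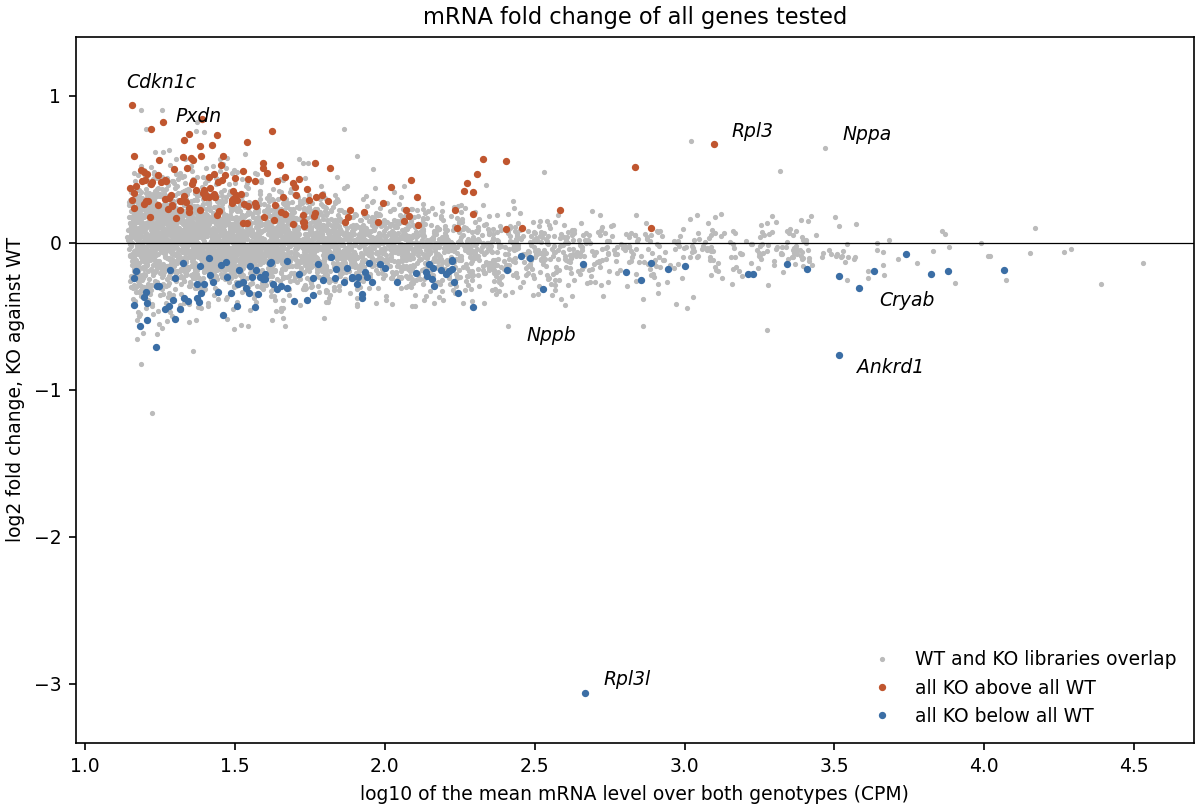
log2 fold change of mRNA, KO against WT (vertical axis), against the log10 of the mean level in CPM (horizontal axis) for the 4294 tested genes. Coloured points are the 150 genes whose KO libraries all lie above and the 122 whose KO libraries all lie below the WT libraries, and *Rpl3l* stands alone at -3.06.

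Among genes whose libraries did not overlap, those with the lowest unadjusted p above WT came from several cell functions, and none of them passed the adjusted threshold. *Cdkn1c*, the cyclin-dependent kinase inhibitor p57, had 8.18, 9.01 and 12.3 CPM in WT and 17.5, 19.2 and 20.0 CPM in KO, a log2 fold change of 0.93 (SE 0.21, unadjusted p = 0.0026). *Pxdn*, a peroxidase that cross-links collagen IV in basement membranes, had 14.9, 12.2 and 12.5 CPM in WT and 23.3, 20.9 and 25.6 CPM in KO, a log2 fold change of 0.82 (SE 0.18, unadjusted p = 0.0022). Both transcripts sat in the low range of the tested genes, and no KO library came near the highest WT library.

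*Dst*, which encodes the cytoskeletal linker dystonin, had 202, 222 and 192 CPM in WT and 260, 276 and 368 CPM in KO (0.55, SE 0.17). *S100a11*, a calcium-binding protein, had 27.3, 30.8 and 37.6 CPM in WT and 46.6, 47.0 and 46.3 CPM in KO (0.54, SE 0.16). *Adgrf5*, an adhesion G protein-coupled receptor of endothelial cells, had 23.0, 26.5 and 19.8 CPM in WT and 37.7, 32.1 and 34.2 CPM in KO (0.59, SE 0.17). KO 3 was highest for *Dst* and KO 1 for *Adgrf5*, while the KO libraries were nearly level for *S100a11*. The tubulin-binding protein gene *Tppp3* (0.84), *Plekha6* (0.74), *Tceal9* (0.66), *Dock9* (0.59), an exchange factor for the small GTPase CDC42, and *Cdc42bpb* (0.56), a kinase that acts downstream of CDC42, had the same lack of overlap.

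Below WT, the non-overlapping genes with the lowest unadjusted p included *Ankrd1*, the titin-associated ankyrin repeat protein of cardiac muscle that is induced by stretch. It had 3613, 5354 and 3390 CPM in WT and 1942, 2510 and 2830 CPM in KO, a log2 fold change of -0.76 (SE 0.22, unadjusted p = 0.0084, adjusted p = 0.9997 in edgeR's quasi-likelihood test). No KO library reached the lowest WT library, and leaving out a library moved the fold change between -0.89 and -0.53. *Folr2*, a folate receptor of tissue macrophages, had 34.6, 31.7 and 34.7 CPM in WT and 25.7, 22.5 and 23.5 CPM in KO (-0.49, SE 0.15). *Pirb*, an inhibitory receptor of myeloid cells, had 21.2, 23.5 and 19.5 CPM in WT and 11.0, 16.6 and 11.9 CPM in KO (-0.71, SE 0.21). The gap between the groups exceeded the spread within WT for *Folr2*, while for *Pirb* KO 2 came closest to WT, and neither passed the adjusted threshold.

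*Rom1*, a tetraspanin best known from photoreceptors, had 100.0, 95.6 and 86.3 CPM in WT and 74.8, 74.1 and 72.1 CPM in KO (-0.35, SE 0.13). *Col8a1*, a short-chain collagen of vessel walls, had 27.6, 22.7 and 20.0 CPM in WT and 16.1, 18.9 and 14.2 CPM in KO (-0.52, SE 0.20). The KO libraries of *Rom1* were close to level, whereas those of *Col8a1* came within reach of the lowest WT library. *Nudt14* (-0.57), a UDP-sugar hydrolase, *Tbcd* (-0.45), a tubulin folding cofactor, *Tex261* (-0.45) and *Il17rc* (-0.40), a subunit of the interleukin-17 receptor, were also lower in every KO library.

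Functions were described by 38 gene lists of 1162 genes, of which 790 were tested and 37 lists had at least 1 tested member. No listed gene passed the adjusted threshold in edgeR's quasi-likelihood test, in DESeq2 or in limma voom. At an unadjusted p below 0.05 there were 12 higher (1.52% of those tested in lists, against 1.35% of all genes) and 8 lower (1.01% against 0.605%). All KO libraries were above WT in 19 (2.41% against 3.49%) and below WT in 29 (3.67% against 2.84%), so the listed genes were near the background. The list medians were small, with 29 of 37 within 0.1 of 0 on the log2 scale. The sign of the median held in all 6 fits that left out 1 library for 16 lists, 10 above and 6 below 0. In 0 lists did the median deviation of all 3 KO libraries lie above that of all 3 WT libraries, and in 1 list, of 2 tested genes, it lay below.

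**Figure D4:**
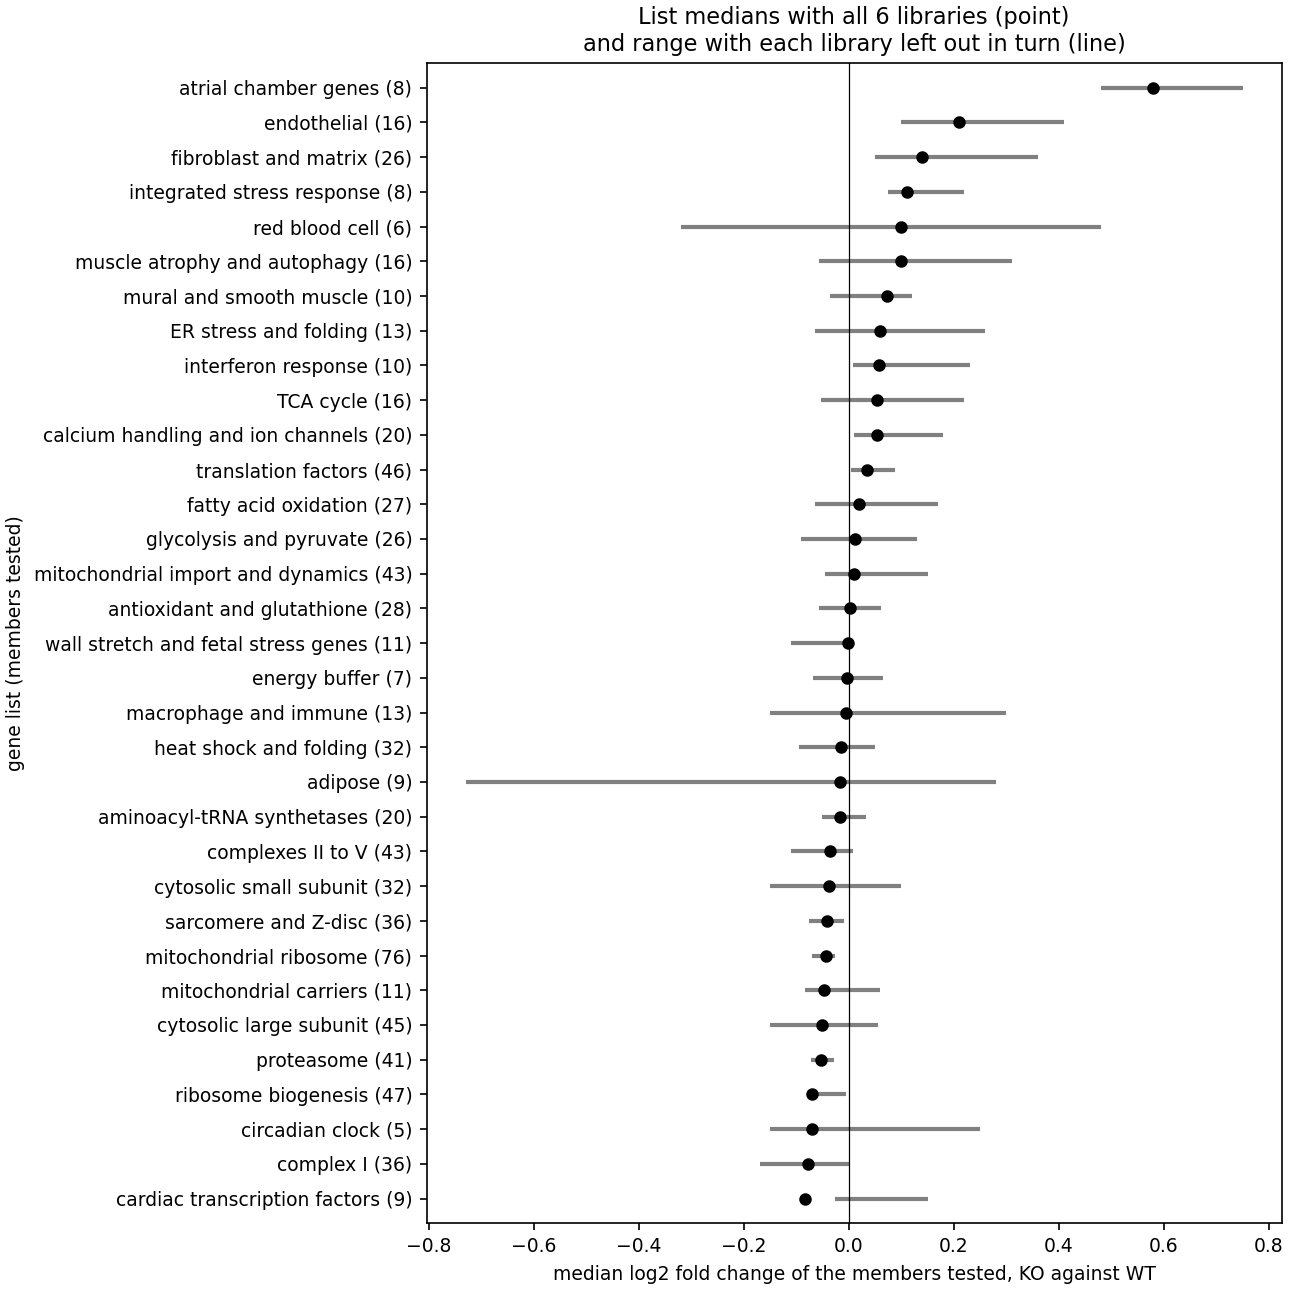
Median log2 fold change, KO against WT, of the tested members of each gene list with 5 or more tested genes (points), with the lowest and highest median after leaving out 1 of the 6 libraries (lines). Most points lie within 0.1 of 0, and the atrial genes stand highest among lists of 5 or more genes at 0.58. Some atrial members were listed from earlier results of these data. A line can miss its point in short lists because the 50-count minimum was applied anew in each fit.

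The list of atrial chamber genes stood highest. Of 20 listed, 8 were tested, and all 8 had a fold change above 0 with a median of 0.58. *Stard10*, *Ptms*, *Myl4* and *Myl7* were listed from earlier results of these data, so this direction and rank are not independent evidence. The place of *Stard10* and *Ptms* on the list does not by itself show atrial identity. The other 12 were under the count minimum, among them *Bmp10* with a mean of 1.67 counts and *Cacna1g* with 49.8. *Nppa*, which encodes atrial natriuretic peptide, had 2083, 2753 and 2042 CPM in WT and 2215, 4120 and 4426 CPM in KO (0.65, SE 0.26, unadjusted p = 0.041). *Myl4*, the atrial essential myosin light chain, had 864, 926 and 614 CPM in WT and 845, 1566 and 1467 CPM in KO (0.69, SE 0.26, unadjusted p = 0.03). KO 2 and KO 3 were high for both, KO 1 lay within the WT range, and the groups therefore overlapped.

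*Myl7*, the atrial regulatory light chain, had 1845, 2157 and 1190 CPM in WT and 1679, 3413 and 2169 CPM in KO (0.48, SE 0.30). *Mybphl*, a myosin-binding protein of atria and conduction tissue, had 57.6, 79.1 and 56.6 CPM in WT and 65.5, 117 and 108 CPM in KO (0.59, SE 0.24). *Stard10*, a lipid transfer protein, had 307, 323 and 222 CPM in WT and 303, 495 and 391 CPM in KO (0.48, SE 0.22). The library KO 2 was highest and WT 3 lowest in each of these 3 genes, and *Ptms* had the same extremes with 335 and 132 CPM (0.39, SE 0.27).

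The groups did not overlap for 2 of the 8 tested atrial members, with all KO above WT, against 3.49% of all tested genes. Part of the list came from earlier results of these data, so this count is not independent evidence. *Sln*, which encodes sarcolipin, an inhibitor of the calcium pump, had 25.5, 16.9 and 20.0 CPM in WT and 26.4, 39.1 and 37.7 CPM in KO (0.73, SE 0.23). *Pam*, the enzyme that amidates peptide hormones and lies in atrial secretory granules, had 147, 145 and 221 CPM in WT and 272, 238 and 250 CPM in KO (0.57, SE 0.20). The 8 genes took 0.543% ± 0.089 (SD, n = 3) of nuclear counts in WT and 0.846% ± 0.23 (SD, n = 3) in KO. Their median deviation was -0.15, -0.03 and -0.51 in WT and -0.18, 0.59 and 0.38 in KO, so the list follows KO 2 and KO 3 against WT 3. Its median fold change was 0.48 without KO 2 and 0.75 without KO 1. Atrial tissue in a dissected ventricle and atrial genes read out in ventricular cells cannot be told apart in bulk RNA, nor can fewer cells of a type and less RNA per cell.

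Genes that ventricular muscle switches on under wall stretch or in the fetal programme did not move one way. Of 20 listed, 11 were tested, 5 above and 6 below 0, with a median of -0.00. Those above 0 were *Nppa* and *Myl4*, which the atrial list shares, and *Actn1*, *Mt1* and *Acta2*, none of them above 0.10. Those below 0 were *Ankrd1* (-0.76), *Nppb*, *Xirp2*, *Myh7*, *Acta1* and *Mt2*. *Nppb*, the gene of B-type natriuretic peptide, had 385, 230 and 310 CPM in WT and 186, 183 and 254 CPM in KO (-0.57, SE 0.23, unadjusted p = 0.037), with KO 3 inside the WT range. *Myh7*, the slow myosin heavy chain of the fetal ventricle, had 166, 182 and 114 CPM in WT and 114, 193 and 103 CPM in KO (-0.17, SE 0.28). *Acta1*, skeletal alpha-actin, had 382, 633 and 615 CPM in WT and 776, 258 and 458 CPM in KO (-0.13, SE 0.38, and 0.18 without KO 2). The highest and the lowest library for *Acta1* were both KO, and the genotypes overlapped for *Myh7*.

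*Xirp2*, a filament-binding protein of intercalated discs, had 1524, 1382 and 628 CPM in WT and 802, 1135 and 666 CPM in KO (-0.44, SE 0.34). *Actn1* (0.01, SE 0.22), *Acta2* (0.10, SE 0.21) and the metallothionein genes *Mt1* (0.04, SE 0.17) and *Mt2* (-0.00, SE 0.26) were near 0, and the sign of each depended on which library was left out. *Gdf15*, *Rcan1*, *Postn* and *Timp1*, frequent markers of cardiac stress or fibrosis, had means of 7, 11.5, 27.7 and 42.3 counts and were not tested. Within the natriuretic peptides, *Nppa* and *Nppb* thus had fold changes of opposite sign.

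The contractile apparatus as a whole had a median of -0.04 over 36 tested genes of sarcomere and Z-disc, 15 above and 21 below 0. The list took 17.0% ± 0.19 (SD, n = 3) of nuclear counts in WT and 16.4% ± 0.29 (SD, n = 3) in KO, and its median stayed below 0 in each fit without 1 library. *Cryab*, the small heat shock protein that protects desmin and titin, had 4273, 4372 and 4001 CPM in WT and 3804, 3222 and 3172 CPM in KO (-0.31, SE 0.13, unadjusted p = 0.041). *Mybpc3*, cardiac myosin-binding protein C, had 3491, 3465 and 3617 CPM in WT and 3085, 3020 and 2932 CPM in KO (-0.23, SE 0.11). *Myh6*, the main adult ventricular myosin heavy chain of the mouse, had 12840, 12450 and 11960 CPM in WT and 9901, 11090 and 11810 CPM in KO (-0.18, SE 0.12). These were the only 3 of 36 sarcomere members whose genotypes did not overlap, all below WT, against 2.84% of all tested genes. For *Myh6* KO 3 came close to WT 3.

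Calcium handling and ion channel genes had a median of 0.05 over 20 tested, 13 above and 7 below 0, and in no member did the groups separate. *Casq2*, the calcium buffer of the sarcoplasmic reticulum, had 44.6, 27.0 and 53.3 CPM in WT and 76.5, 47.3 and 61.9 CPM in KO (0.57, SE 0.28). Of 9 tested cardiac transcription factors, 4 were above and 5 below 0, and *Hand2*, a factor of heart development, had 11.5, 15.1 and 17.6 CPM in WT and 18.2, 19.5 and 23.3 CPM in KO (0.46, SE 0.22). *Hand2* and *Foxo1* were the 2 of 9 factors with all KO libraries above WT, against 3.49% of all tested genes. The median of these factors was -0.08, and its sign held in 2 of the 6 fits without 1 library.

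The respiratory chain was close to level. Complex I had 6 of 36 genes above and 30 below 0 with a median of -0.08, and complexes II to V had 15 of 43 above and 28 below with a median of -0.04. The complex I median ran from -0.17 without WT 3 to 0.00 without WT 1. Genes with separated groups were *Ndufa9* of complex I (-0.21, SE 0.12) and *Uqcrc1* (-0.18, SE 0.12) and *Cyc1* of complex III. *Cyc1*, cytochrome c1, had 1695, 1755 and 1793 CPM in WT and 1525, 1528 and 1472 CPM in KO (-0.21, SE 0.11). In all 3 the KO libraries were lower, by about the size of the SE of a typical gene. Such genes were 1 of 36 in complex I and 2 of 43 in complexes II to V, against 2.84% of all tested genes.

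Fuel genes were divided. Fatty acid oxidation had 14 of 27 above 0 (median 0.02), glycolysis and pyruvate use 14 of 26 (median 0.01), the TCA cycle 12 of 16 (median 0.05) and the energy buffer list of creatine and adenylate kinases and related genes 3 of 7 (median -0.00). *Slc27a1*, a fatty acid transporter and acyl-CoA synthetase, had 28.8, 37.2 and 43.1 CPM in WT and 51.4, 60.9 and 45.8 CPM in KO (0.53, SE 0.20, unadjusted p = 0.027). *Ckmt2*, the sarcomeric mitochondrial creatine kinase, had 7310, 7697 and 6426 CPM in WT and 6018, 6076 and 6386 CPM in KO (-0.21, SE 0.12). The nearest WT and KO libraries of both genes were close to touching. *Eno3*, the muscle enolase, and *Suclg1*, a subunit of succinyl-CoA ligase, were lower in all KO libraries (-0.19 and -0.18), and *Pdha1*, of pyruvate dehydrogenase, higher (0.18). The other fatty acid oxidation genes with separated groups lay below WT: *Acaa2*, the mitochondrial thiolase (-0.16), and *Eci1*, an enoyl-CoA isomerase (-0.15).

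Mitochondrial ribosome genes had 27 of 76 above and 49 below 0, with a median of -0.04 that stayed below 0 in each fit without 1 library. *Mrps34*, a small-subunit protein, had 246, 239 and 198 CPM in WT and 161, 197 and 145 CPM in KO (-0.44, SE 0.17, unadjusted p = 0.033), with KO 2 just under WT 3. *Mrps34* also lies within 250 kb of the targeted gene *Rpl3l*. Mitochondrial import and dynamics had 24 of 43 above 0 with a median of 0.01, and its leading members went opposite ways. *Timm50*, of the inner membrane translocase, had 95.5, 101 and 88.7 CPM in WT and 77.5, 64.2 and 78.2 CPM in KO (-0.37, SE 0.14). *Tomm22*, a receptor of the outer membrane translocase, had 23.3, 26.5 and 33.7 CPM in WT and 40.5, 39.4 and 37.9 CPM in KO (0.49, SE 0.18). Mitochondrial carriers had 4 of 11 above 0 (median -0.05).

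Cytosolic ribosomal protein genes other than the paralog pair stayed near WT. Of 45 tested large-subunit genes, 12 were above and 33 below 0, between -0.29 and 0.30, with a median of -0.05. Of 32 small-subunit genes, 12 were above and 20 below 0, between -0.25 and 0.13, with a median of -0.04. No large-subunit gene had separated groups, and none exceeded 0.30, against 0.67 for *Rpl3*. Both medians changed sign with 1 library left out, running from -0.15 to 0.06 for the large and from -0.15 to 0.10 for the small subunit. Only *Rps2* had all KO libraries below WT, with 6081, 5407 and 5430 CPM in WT and 5407, 5297 and 5314 CPM in KO (-0.08, SE 0.11), and KO 1 was level with WT 2 to the digits given. *Rps2* lies within 250 kb of the targeted gene *Rpl3l*.

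The rest of the translation machinery was also near 0. Translation factors had 30 of 46 above 0 (median 0.04, 0.00 to 0.09 with 1 library left out), ribosome biogenesis 17 of 47 (median -0.07, -0.07 to -0.01) and aminoacyl-tRNA synthetases 9 of 20 (median -0.02). The integrated stress response is the programme that follows stalled or limited translation through ATF4. Of 28 listed genes 8 were tested, 7 of them above 0, with a median of 0.11. Most listed genes, among them *Asns*, *Trib3* and *Chac1*, were under the count minimum. The list's median deviation was -0.21, -0.12 and 0.16 in WT and 0.13, 0.065 and 0.057 in KO, so WT 3 exceeded every KO library. Its member *Cebpb*, a bZIP transcription factor, had 10.6, 18.9 and 24.6 CPM in WT and 25.4, 26.8 and 25.4 CPM in KO (0.51, SE 0.28). *Ddit3*, the ATF4 target CHOP, had 75.2, 87.5 and 58.6 CPM in WT and 41.8, 72.5 and 40.7 CPM in KO (-0.52, SE 0.26). The KO libraries of *Cebpb* were level while WT ranged widely, and *Ddit3* overlapped.

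No folding or degradation list had its KO library medians apart from those of WT. Heat shock and folding had 15 of 32 above 0 (median -0.02), ER stress and folding 11 of 13 (median 0.06, -0.06 to 0.26 with 1 library left out), the proteasome 10 of 41 (median -0.05, -0.07 to -0.03) and muscle atrophy and autophagy 12 of 16 (median 0.10). Antioxidant and glutathione genes were split evenly, 14 and 14, with a median of 0.00. *Hsp90aa1*, the inducible cytosolic HSP90, followed the library order and not the genotype, with 2941, 2645 and 1225 CPM in WT and 1585, 1856 and 1076 CPM in KO (-0.59, SE 0.34). The proteasome had the tightest members, with a median within-group SD of 0.13 on the log2 scale, against 0.92 for red blood cell genes.

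Among cell types other than cardiomyocytes, endothelial genes leaned above WT, with 15 of 16 above 0. Their median was 0.21 (0.10 without WT 1 to 0.41 without WT 3). The list's median deviation was -0.34, -0.23 and 0.11 in WT and 0.22, 0.05 and 0.25 in KO, so WT 3 exceeded KO 2. It was thus higher in WT 3, KO 1 and KO 3 than in the other libraries. *Tie1*, an endothelial receptor tyrosine kinase, had 94.6, 87.8 and 92.5 CPM in WT and 124, 113 and 120 CPM in KO (0.38, SE 0.12, unadjusted p = 0.017). *Vwf*, the von Willebrand factor of the same cells, went the other way with 199, 213 and 177 CPM in WT and 137, 165 and 162 CPM in KO (-0.34, SE 0.15, unadjusted p = 0.049). Both separated the genotypes, in opposite directions. Summed defining endothelial markers did not: they stood at 55.2, 43.3 and 67.9 CPM in WT and 73.4, 42.0 and 83.0 CPM in KO, high in WT 3, KO 1 and KO 3, and their part in the result was not tested.

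Fibroblast and matrix genes had 20 of 26 above 0 with a median of 0.14 (0.05 without KO 3 to 0.36 without WT 3). Their median deviation was -0.15, -0.25 and 0.13 in WT and 0.10, -0.13 and 0.29 in KO. WT 3 thus exceeded KO 1 and KO 2, and the list was higher in WT 3, KO 1 and KO 3 than elsewhere. *Fn1*, fibronectin, had 14.9, 10.5 and 14 CPM in WT and 18.5, 17.5 and 18.8 CPM in KO (0.48, SE 0.20, unadjusted p = 0.042), and *Col8a1* above lay on the other side. *Col1a1*, of the main fibrillar collagen, had 42.7, 52.9 and 67.7 CPM in WT and 67.2, 54.0 and 79.1 CPM in KO (0.29, SE 0.22), so the groups overlapped. Mural and smooth muscle genes had 6 of 10 above 0 (median 0.07).

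Macrophage and immune genes had 6 of 13 above and 7 below 0 with a median of -0.01, and its members with separated groups lay on both sides. *H2-Eb1*, an MHC class II beta chain, had 32.7, 37.2 and 41.9 CPM in WT and 51.1, 44.4 and 54.0 CPM in KO (0.42, SE 0.16, unadjusted p = 0.032). *H2-Ab1*, another class II beta chain, had 57.0, 54.1 and 53.3 CPM in WT and 70.0, 64.5 and 71.4 CPM in KO (0.33, SE 0.13, unadjusted p = 0.037). Both had every KO library above WT, and *H2-Aa*, the class II alpha chain (0.54, SE 0.22), overlapped. *H2-Eb1* and *H2-Ab1* start at 34305867 and 34263209 on chromosome 17, which also carries the targeted gene *Rpl3l*. Whether that position plays a part was not tested. *C1qa*, a complement subunit made by macrophages, had 149, 152 and 147 CPM in WT and 131, 124 and 128 CPM in KO (-0.23, SE 0.12). Other defining macrophage markers overlapped: *Csf1r* had 23.9, 27.9 and 33.5 CPM in WT and 26.4, 23.2 and 35.1 CPM in KO, and *Cd68* had 13.3, 13.7 and 19.0 CPM in WT and 20.6, 13.6 and 16.7 CPM in KO.

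**Figure D5:**
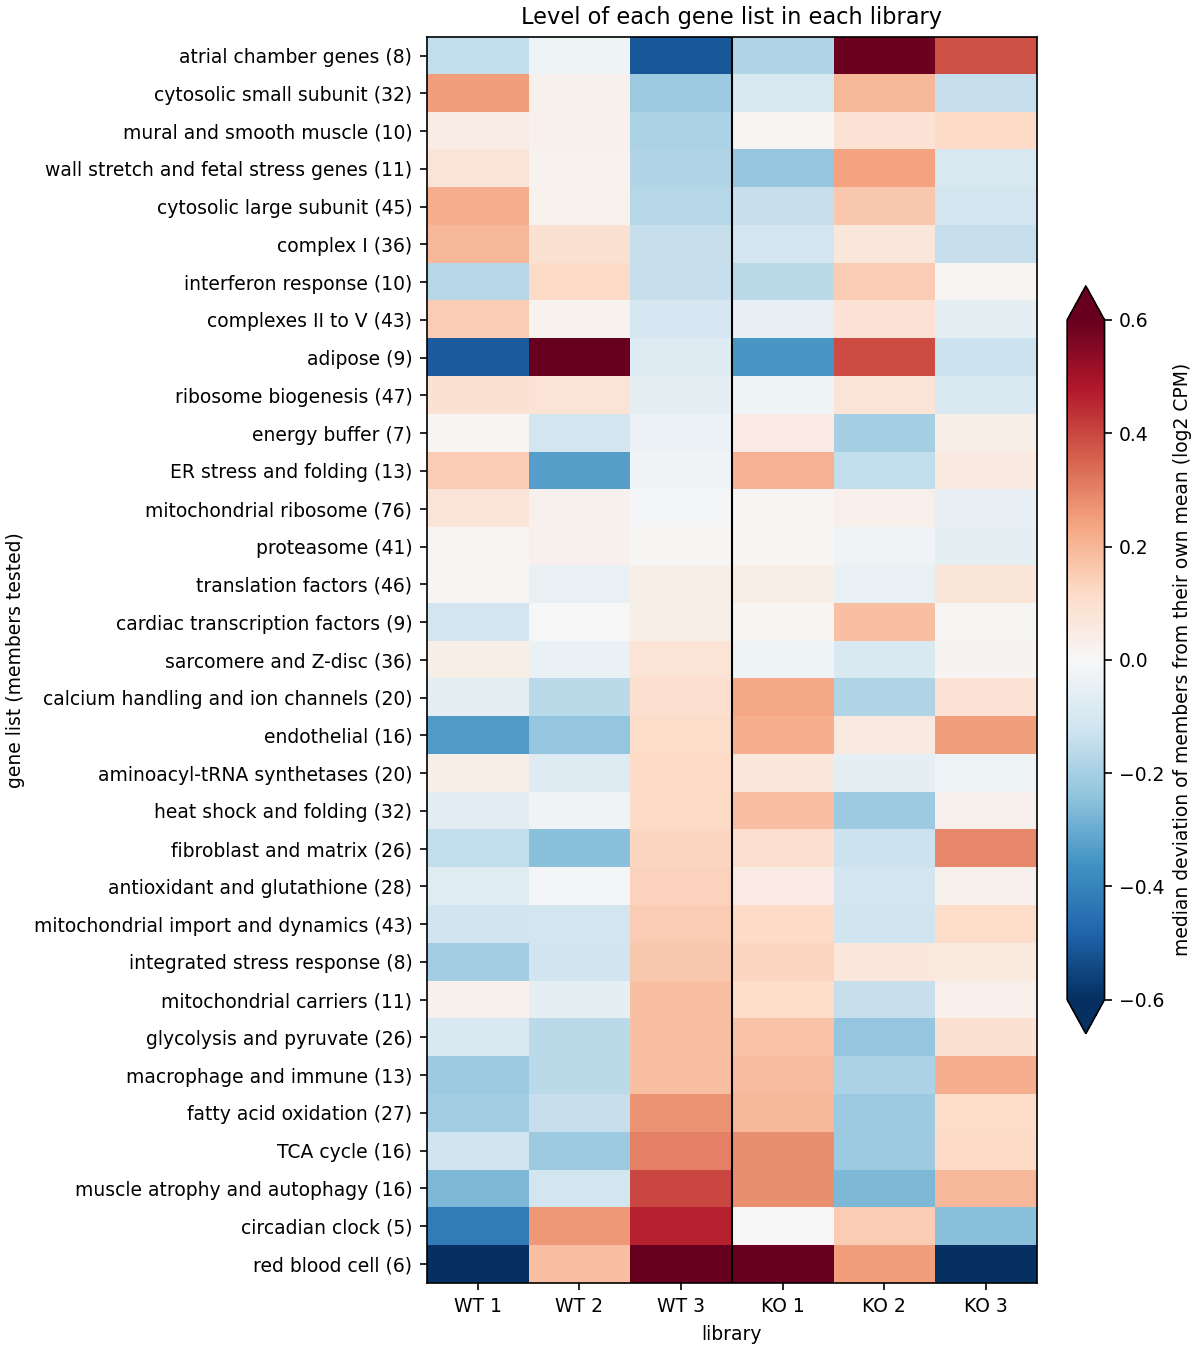
Median deviation of the members of each gene list from their mean over the 6 RNA libraries (log2 CPM, colour) for each list of 5 or more tested genes (vertical axis) and library (horizontal axis), with colours ending at 0.6 in either direction. Atrial genes are low in WT 3 and high in KO 2 and KO 3, and many other lists take like colours in WT 3, KO 1 and KO 3.

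The remaining lists were short or uneven. Red blood cell genes (6 tested, median 0.10) had deviations from -0.81 in WT 1 to 0.85 in KO 1 and -1.10 in KO 3, and adipose genes (9 tested, median -0.02) reached 1.10 in WT 2. Both therefore varied more among libraries of 1 genotype than between genotypes. Medians were 0.54 for 3 immediate early genes, 0.13 for 4 p53 targets, 0.11 for 4 cell cycle genes, 0.06 for 10 interferon response genes and -0.07 for 5 circadian clock genes. *Klf2*, a shear-responsive factor among the immediate early genes, had 9.09, 7.85 and 20.5 CPM in WT and 32.2, 14.9 and 24.0 CPM in KO (0.90, SE 0.42) and overlapped. The 2 tested epicardial and mesothelial genes, *Msln* (-0.50, SE 0.21) and *C3* (-0.43, SE 0.21), were both lower, and no Schwann cell gene was tested. Of the 37 lists, 16 were higher in WT 3, KO 1 and KO 3 than in WT 1, WT 2 and KO 2, 7 were lower and 14 had another order.

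The share of separated genes was also read by transcript length, against 3.49% above and 2.84% below over all tested genes. Of 209 tested genes of 8 kb or more, *Dst* and *Adgrf5* among them, 17 (8.13%) had all KO libraries above WT and 4 (1.91%) all below. Of 1212 genes between 1 and 2 kb, 33 (2.72%) lay above and 61 (5.03%) below. In the other 4 classes the share above lay between 3.21% and 4.25% and the share below between 1.78% and 2.24%. The median fold changes of the longest class and of the 1 to 2 kb class were -0.03 and 0.01. The differences between length classes were not tested.

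Footprint values of the named genes were set beside their mRNA, with no test, since the libraries may come from the same hearts. *Ankrd1* had a footprint log2 fold change of -0.53 (SE 0.19), *Nppb* one of -0.47 (SE 0.18) and *Cryab* one of -0.44 (SE 0.18), against mRNA values of -0.76, -0.57 and -0.31. *Sln* had 0.62 (SE 0.22) and *Pxdn* 0.50 (SE 0.15), against mRNA values of 0.73 and 0.82. These genes had the same sign in both readouts, and others did not. *Plekha6* had a footprint value of -0.49 (SE 0.23), *Cdc42bpb* -0.34 (SE 0.16), *S100a11* -0.25 (SE 0.14) and *Ptms* -0.57 (SE 0.20), against mRNA values of 0.74, 0.56, 0.54 and 0.39. Signs also differed, with footprint values within 1 SE of 0, for *Tceal9*, *Tomm22*, *Tex261*, *Xirp2* and *Mt2*, and for *Mt1* at -0.17 (SE 0.16). *Nppa* had 0.09 (SE 0.14), *Myl4* 0.20 (SE 0.15) and *Cdkn1c* -0.03 (SE 0.25), against mRNA values of 0.65, 0.69 and 0.93, so their mRNA values were the larger in size.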

How the data were processed

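The labels' protocols describe poly(A)-selected directional RNA libraries of undigested left ventricular lysate, 3 per genotype. The authors deposited raw counts, whole numbers per transcript name. The submitters' processing notes name cutadapt 1.18 and Bowtie2 2.4.2. The genome build, counting program, counted region and use of strand are not given in the sources used here, so reads of overlapping genes and close paralogs may be shared. GENCODE M21 transcripts matched 98.87% of names and gave lengths and coordinates.

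Names beginning with mt- were left out, genes needed a mean of 50 counts, and TMM factors came from nuclear counts. edgeR 4.0.16 (R 4.3.3) fitted genotype by quasi-likelihood, with Benjamini-Hochberg adjustment and a threshold of 0.05. CPM is counts over TMM-scaled nuclear totals, and deviations use log2(CPM + 0.5). Between replicate libraries the chi-square per degree of freedom was 8.3 to 44.3, where counting error alone gives about 1. The spread between libraries thus exceeded counting error in this sum over genes, to which abundant transcripts add most. How far depth limits precision for genes with few counts was not tested. Floors cover counting error only. DESeq2 1.42.0 and limma 3.58.1 (voom), other scalings and filters, a replicate block and fits without each library were alternatives. The fit was tested on simulated data.

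Named genes were *Rpl3l*, *Rpl3*, any gene past the adjusted threshold, the 12 lowest unadjusted p without overlap in each direction, up to 2 members per list with unadjusted p below 0.05 and no overlap, and every tested atrial and wall stretch gene. Any further gene was picked with its values in view. Genes and lists were chosen with earlier results of these data known, and the atrial list holds *Stard10*, *Ptms*, *Myl4* and *Myl7* from those results, so its direction is not independent evidence. The p-values measure the spread between these samples.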

Additional observations from a re-analysis of the deposited data

How the results depend on the processing

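The number of genes past the adjusted threshold was 1 in 15 alternatives and 2 with no count filter, where *Ins2* (mean 24.8 counts, log2 fold change -1.93, adjusted p = 0.0042 in edgeR's quasi-likelihood test) joined *Rpl3l* and 464 genes had an unadjusted p below 0.05. The number with an unadjusted p below 0.05 was 84 as reported, 215 with the filterByExpr filter, 23 with a mean of at least 200 counts, and between 66 and 86 with other scalings or tools. It ran from 29 without KO 3 to 350 without WT 3, with 167 without KO 2, 40 without WT 1, 45 without WT 2 and 49 without KO 1. *Rpl3l* kept an adjusted p of at most 0.00531 throughout.

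Same-numbered WT and KO libraries correlated at -0.36, 0.58 and 0.59 in their deviations from the group means. These values cannot show whether same-numbered libraries were paired. The first principal component had WT 2 on the side of KO 2 and WT 3 on the side of KO 3. However, KO 2 (-15.0) lay nearer WT 1 (-15.9) than WT 2 (-13.3), and KO 3 (13.9) nearer KO 1 (12.3) than WT 3 (18.0). With the replicate block, the fold change was -3.06 (SE 0.16) for *Rpl3l* and 0.67 (SE 0.14) for *Rpl3*, 119 genes had an unadjusted p below 0.05 and 1 passed the adjusted threshold. WT 1 correlated best with KO 2 (0.56), and WT 3 also correlated with KO 1 (0.51).

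A few genes near 0 changed sign. *Actn1* had -0.0014 in voom, -0.0344 with the filterByExpr filter, -0.0233 with no filter, -0.00947 with the replicate block and -0.18 to 0.16 without 1 library. *Mt2* had 0.0343 with library-size scaling and -0.28 to 0.16 without 1 library. Without 1 library the range was -0.11 to 0.11 for *Mt1*, -0.603 to 0.18 for *Acta1* and -0.11 to 0.25 for *Acta2*. The cause was not tested.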

Other observations

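Genes near *Rpl3l* on chromosome 17 were compared between genotypes. Within 250 kb of the gene, 31 other names lay in GRCm38 and 16 were tested, 7 above and 9 below 0. They ran from -0.44 for *Mrps34* to 0.51 for *Fahd1*. The genotypes did not overlap in 5 of the 16, *Pkd1* (0.41) and *Slc9a3r2* above WT and *Tsc2* (-0.17), *Rps2* (-0.08) and *Mrps34* below, against 3.49% above and 2.84% below over all tested genes. *Slc9a3r2*, a scaffold of membrane transporters, had 26.1, 29.4 and 33.5 CPM in WT and 46.0, 37.7 and 37.0 CPM in KO (0.43, SE 0.17, unadjusted p = 0.033). *Ndufb10* (-0.13) and *Msrb1* (0.24), the nearest tested gene on each side, overlapped between genotypes.

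A few transcripts foreign to ventricular muscle differed between libraries of 1 genotype. *Scgb1a1*, the secretoglobin of airway club cells, had 0, 0 and 261 counts in WT libraries 1 to 3 and 2, 33 and 204 counts in KO libraries 1 to 3, while *Sftpc* of alveolar cells had none in any library. *Ucp1*, the uncoupling protein of brown fat, stood at 19.4, 139 and 5.78 CPM in WT and 7.20, 154 and 23.3 CPM in KO. *Ins2*, an insulin gene, had 46, 18 and 56 counts in WT and 7, 14 and 8 counts in KO.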
